A study of Drosophila melanogaster with 55 samples.

Results

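The chromatin regions described here had a peak of the histone methyltransferase SetDB1, fused to GFP, in SetDB1 WT embryos. They overlapped a peak of acetylated histone H3 from another strain. No peak of H3 trimethylated on lysine 9 was called there in SetDB1 WT. In early Drosophila melanogaster embryos, a region was a segment covered by a GFP-SetDB1 peak in both SetDB1 WT libraries, and there were 2200 of them. Those overlapping by at least 1 base a peak of H3K14ac (acetylation of histone H3 on lysine 14) from w1118 embryos at stage 5, and no peak of H3K9me3 in either WT library, numbered 722. Another 624 regions had H3K9me3 without H3K14ac, 102 had both marks and 752 had neither. With WT replicate 1 in place of both GFP-SetDB1 libraries the same rule gave 1123 regions, and with WT replicate 2 it gave 775. The peaks that chose the 722 regions are a description of them and were not tested.

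SetDB1, called Eggless in flies, methylates lysine 9 of histone H3, and H3K9me3 is the mark of constitutive heterochromatin, where the HP1 family binds. H3K14ac is written by acetyltransferases such as Gcn5 and is usual at the promoters of active genes. Stages 4 to 6 span the syncytial blastoderm, its cellularisation and the onset of gastrulation, the time when the zygotic genome is switched on and heterochromatin is first laid down.

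SetDB1 WT embryos had the genotype GFP-SetDB1 WT/CyO and F578A embryos GFP-SetDB1 F578A/CyO, where CyO is a balancer chromosome and F578A exchanges a phenylalanine of the protein for alanine. The stage of these embryos is given only as the range 4 to 6 for the series. Knockdown embryos at stage 5 carried GFP-SetDB1 with nos-Gal4, a driver active in the germline, and a Gcn5 RNAi or a w RNAi construct; w, or white, acts in eye pigmentation and stands as the control target. GFP-SetDB1 and H3K9me3 were measured in 2 libraries in each of these genotypes, and H3K14ac in 2 libraries in each knockdown. The w1118 strain, without GFP-SetDB1, gave 1 library per mark at stages 4, 5 and 6, so H3K14ac and SetDB1 came from different genotypes. The labels do not say whether replicates were separate collections, so a p-value measures only the spread between these libraries, which may be technical.

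Depth differed between the genotypes. The GFP-SetDB1 libraries held 8.93 and 9.43 M fragments in WT, 8.08 and 7.69 M in F578A, 5.37 and 6.05 M in the w knockdown and 1.63 and 2.08 M in the Gcn5 knockdown. The H3K14ac libraries held 5.34 and 3.14 M in the w knockdown and 1.47 and 1.87 M in the Gcn5 knockdown. The H3K9me3 libraries held 2.63 and 2.47 M in WT and 1.46 and 1.43 M in F578A. They held 2.41 and 2.56 M in the w knockdown and 1.64 and 2.17 M in the Gcn5 knockdown. Depth moved with the Gcn5 knockdown in each of the 3 antibodies. It was also lower in F578A than in WT, for GFP-SetDB1 and more so for H3K9me3.

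The 722 regions were short, with a median length of 514.5 bases and a range of 14 to 3915, and covered 479 kb in all. Fold enrichment is the authors' own value for a peak over input, and a region takes the highest value among the peaks it overlaps. WT replicate 1 ran from 1.44 to 39.2 with a median of 3.73, and WT replicate 2 from 1.41 to 21.8 with a median of 2.71. The mean of both had a median of 3.19. At the limit of the H3K14ac rule, 143 of the regions shared at most 100 bases with an H3K14ac peak and had a median WT fold of 3.10. Just outside it, 123 regions with neither mark lay within 200 bases of an H3K14ac peak and had a median WT fold of 2.68. Only 11 of the 722 had a WT H3K9me3 peak within 1000 bases, and the median distance to the nearest one was 79444 bases.

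These were regions at the ends of genes. A gene end is the first or last base of an annotated gene; starts and stops could not be told apart, since the gene table used here carries no strand. Of the 722 regions, 668 (92.5%) lay within 500 bases of a gene end, beside 52.1% of all 2200 SetDB1 regions, and 646 (89.5%) had a gene end inside them. The share was 1.92% of the regions on H3K9me3, 61.2% of those with neither mark and 43.6% of the 8776 stage 5 H3K14ac peaks without a SetDB1 region. Measured from the centre of a region, the shares were 90.9%, 1.12%, 58.0% and 30.2%. A longer region can hold a gene end far from its centre, so this measure also depends on length. In the same order, median lengths were 514.5, 791, 412.5 and 757 bases. The median distance from the centre to the nearest gene end was 101 bases, against 20502 on H3K9me3 and 1408 at H3K14ac peaks without SetDB1. Of the remaining regions 34 lay in gene bodies and 19 between genes.

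Many lay near the ends of several genes. There were 545 regions (75.5%) with 2 or more ends of protein-coding genes within 500 bases, beside 38.9% of all SetDB1 regions, 40.8% of those with neither mark and 19.3% of the H3K14ac peaks without SetDB1. By the centre the shares were 66.5% for the 722 regions and 11.4% for those H3K14ac peaks. By chromosome arm, 139 regions lay on 2L, 152 on 2R, 139 on 3L, 174 on 3R, 8 on chromosome 4 and 107 on X. The X chromosome thus held 14.8% of the regions, against 6.49% of the H3K14ac peaks without SetDB1 and 23.1% of the SetDB1 regions with neither mark. These positions have no replicate and were not tested.

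The regions touched 1280 of 13962 protein-coding genes (9.17%) within 500 bases of an end. Of the 6368 genes with a stage 5 H3K14ac peak there, 19.2% had one of the regions. Gene families, chosen by their symbols after the values were seen, differed in how often they had one, which was not tested. Of 88 genes for cytoplasmic ribosomal proteins, 30 (34.1%) had a region, among them RpL26, RpL32, RpS6 and RpS23, and 75 of the 88 had H3K14ac. The nuclear pore genes had 8 of 21, including Nup98-96 and Nup153, the cytochrome c oxidase genes 6 of 19, the translation initiation factors 11 of 44 and the proteasome subunits 8 of 48. Mitochondrial ribosomal proteins had 11 of 73 and subunits of the mitochondrial complex I 4 of 40. Among genes with H3K14ac, a region was found at 40% of cytoplasmic ribosomal, 44.4% of nuclear pore and 54.5% of cytochrome c oxidase genes. The share was 36.7% for initiation factors, 24.2% for the proteasome, 18.0% for mitochondrial ribosomal proteins and 13.3% for complex I, beside 19.2% of all. None of 119 odorant and gustatory receptor genes and none of 85 cuticle protein genes had a region, although 23 and 25 of them had H3K14ac. Among 85 cytochrome P450 genes, 32 had H3K14ac and Cyp4d1 alone had a region.

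For 4 lists of genes of the early embryo and of chromatin, counts are given beside H3K14ac. Of 38 zygotic patterning and cellularisation genes, 28 had H3K14ac at stage 5 and 1, Sry-alpha, had one of the regions, while halo, frs and Sxl had a SetDB1 region with neither mark. Of 7 pioneer and zygotic activation factors, 3 had H3K14ac and none had a region; Psq had a SetDB1 region with neither mark. Among 20 heterochromatin and H3K9 methylation factors, 12 had H3K14ac and 4 had a region, namely Su(var)3-9, HP4, arx and HDAC1, while wde, G9a and ADD1 had a SetDB1 region with neither mark. Of 11 histone acetyltransferases and readers, 10 had H3K14ac and chm, an acetyltransferase of the MYST family, alone had a region, and fs(1)h and Sgf29 had a SetDB1 region with neither mark. The shares with a region were 2.63% of the patterning list, 20% of the heterochromatin list and 9.09% of the acetyltransferase list, beside 9.17% of all protein-coding genes. A region needs an H3K14ac peak, which 28, 12 and 10 genes of these lists had. Among all protein-coding genes with H3K14ac at an end, 19.2% had a region.

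The region with the highest fold lay between TAF1C-like, whose human counterpart is a subunit of the initiation factor of RNA polymerase I, and MESK2, at chr2R:21501578-21502387 (dm6). Its fold enrichment was 39.2 and 21.8 in WT and 37.1 and 24.2 in F578A, so the F578A values lay between the WT values. H3K14ac was low there, at 1.79 at stage 5 and 1.71 at stage 6, with no peak at stage 4 or in either knockdown. Next came chr2R:14752067-14752759 between Rpn6, a subunit of the proteasome lid, and ave, with 15.6 and 11.8 in WT and 18.4 and 12.6 in F578A. At chrX:5737737-5738387, between the endosomal sorting nexin gene Snx27 and the Integrator subunit gene IntS6, WT gave 16.6 and 10.5 and F578A 17.5 and 12.3. In both regions each F578A library was above the WT library of the same number, by less than the difference between the WT replicates.

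At chr3R:17718008-17718967, between osa, a subunit of the Brahma chromatin remodelling complex, and Pxt, a peroxidase needed in oogenesis, WT gave 12.9 and 12.2 and F578A 12.5 and 10.4. That region had H3K14ac at each stage, with folds of 2.41, 2.35 and 2.94 at stages 4, 5 and 6, and in both w knockdown libraries with 2.86 and 3.53. In replicate 2 of the Gcn5 knockdown H3K14ac stood at 3.70, and GFP-SetDB1 was called in replicate 2 of the w knockdown alone, at 2.14. The region of Sumo, the small ubiquitin-like modifier, and snRNP-U1-70K, a splicing factor, at chr2L:6967308-6968510 gave 12.8 and 10.3 in WT and 12.4 and 9.37 in F578A. At chr3R:30039366-30039989, beside janA, Sry-beta and the cellularisation gene Sry-alpha, WT gave 11.3 and 11.01 and F578A 14.3 and 14.9. Here both F578A libraries lay above both WT libraries, and H3K14ac at stage 5 reached 3.596, the highest of any of the 722 regions. A weaker region nearby, at the ends of Sry-alpha, Sry-beta and Sry-delta (chr3R:30043210-30043486), gave 2.08 and 1.75 in WT and 2.31 and 1.92 in F578A.

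The other 6 of the 12 regions with the highest WT fold had mean WT folds of 9.50 to 10.6. They lay at Zdhhc8 and BCL7-like (chrX:9355964-9356764), at CG3902 and RpL26 (chr3L:18898639-18899291), at PRL-1, a phosphatase, and EndoGI, an inhibitor of the nuclease EndoG (chr2L:16257335-16258024), at Pop4, a subunit of RNase P, and the kinase nmo (chr3L:7978510-7979175), at Pex23 (chr3L:20301949-20302679), and at RpL32 and CG7943 (chr3R:30045928-30046630). At Pex23, F578A gave 15.0 and 9.35 against 11.2 and 8.23 in WT. At CG3902 and RpL26, F578A gave 12.1 and 6.68 against 12.2 and 8.96. Ranked by F578A, 2 further regions came among the 8 highest: that of mnb, a DYRK kinase, and CG6788 (chrX:17886845-17887712), with 14.04 and 9.87 against 9.71 and 6.55 in WT, and that of the mitotic kinase gene aurA with CG3281 (chr3R:11962677-11963387), with 13.5 and 9.50 against 10.5 and 7.63. All 14 of these regions lay at a gene end.

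**Figure D1:**
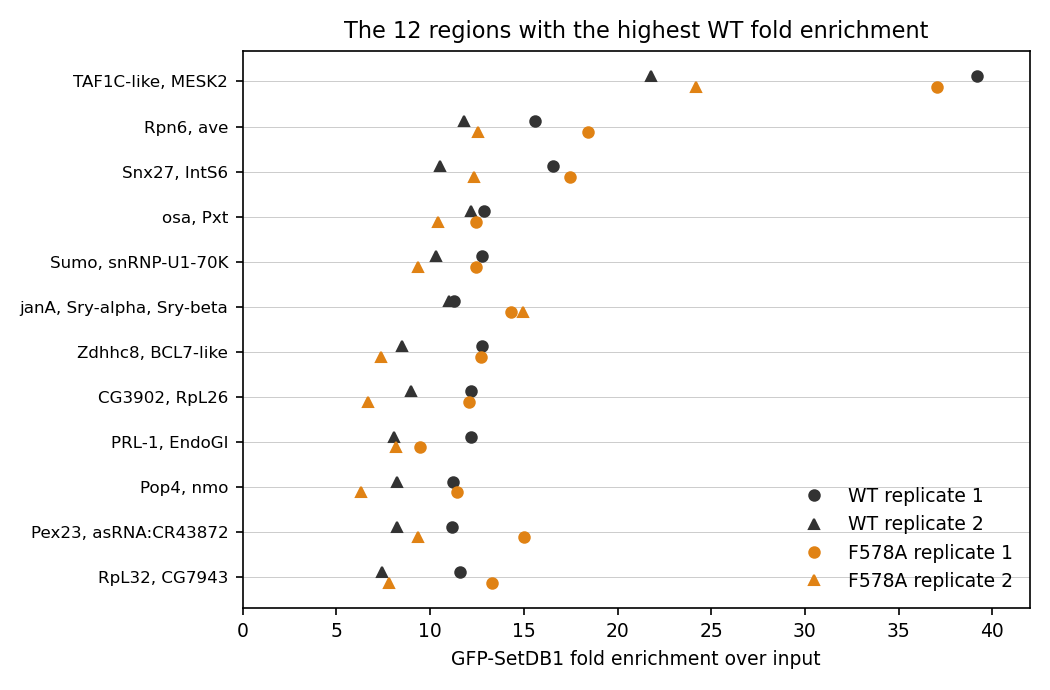
GFP-SetDB1 fold enrichment over input (horizontal axis) in the 12 regions with the highest mean WT fold, with 1 point for each WT and F578A library. Replicate 1 (circles) stands to the right of replicate 2 (triangles) in nearly every row, and the distance between replicates is mostly larger than that between WT and F578A. At janA, Sry-alpha and Sry-beta both F578A points lie to the right of both WT points.

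SetDB1 with the F578A change was found at most of these regions. F578A replicate 1 had a GFP-SetDB1 peak at 685 of 722 regions (94.9%) and replicate 2 at 631 (87.4%), a mean of 91.1% ± 5.29 (SD, n = 2). Both libraries had a peak at 613 (84.9%), beside 56.7% of all SetDB1 regions, and 19 regions had none. On H3K9me3 without H3K14ac the shares were 34.1% and 51.0%, with neither mark 73.1% and 67.8%, and with both marks 54.9% and 82.4%. The 722 regions thus lay 60.7 and 36.4 percentage points above the regions on H3K9me3, 21.7 and 19.6 points above those with neither mark, and 39.97 and 5.04 points above those with both marks. The 3 differences had the same sign in both libraries; the exact sign-flip test gave p = 0.5, the smallest that 2 libraries allow. F578A against WT was not tested, since the choice of regions sets the WT share at 100%. The kinds of region also differed in strength in WT. Median WT folds were 3.73 and 2.71 at the 722, 2.10 and 2.00 on H3K9me3 without H3K14ac, 2.65 and 2.28 with neither mark. With both marks they were 2.22 and 2.17. The part of WT fold in the differences between kinds was not tested.

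The regions had nearly the same order by fold in F578A as in WT. Among the 613 regions with a peak in all 4 libraries, the median fold was 4.04 and 2.93 in WT and 4.69 and 3.16 in F578A, with median ratios of F578A to WT of 1.12 in replicate 1 and 1.06 in replicate 2. F578A was above WT in both same-numbered pairs at 318 regions (51.9%, beside 41.3% of all SetDB1 regions with 4 peaks) and below in both at 79 (12.9%, beside 22.8%). Both F578A libraries lay above both WT libraries at 59 of the 613 regions, beside 115 of 1248 SetDB1 regions with 4 peaks (9.21%). They lay below both at 11 of the 613, beside 150 of 1248 (12%). With neither mark, 419 regions had all 4 peaks, with median ratios of F578A to WT of 1.05 and 1.03. There F578A was above WT in both pairs at 173 (41.3%) and below at 79 (18.9%). On H3K9me3 without H3K14ac, 163 regions had all 4 peaks, with medians of 2.27 and 2.202 in WT and 1.84 and 2.02 in F578A, and F578A was below WT in both pairs at 95 (58.3%). With both marks, 53 regions had all 4 peaks, and F578A was below WT in both pairs at 31 (58.5%). Across the 613 regions WT and F578A means had a Spearman rho of 0.92, and the WT replicates one of 0.90. The rho of WT and F578A was as high at all SetDB1 regions, 0.91, and at those with neither mark, 0.93, and lower on H3K9me3, 0.42. On H3K9me3 the replicates also followed each other less, with a rho of 0.70 in WT and 0.67 in F578A. The regions share libraries and inputs, so these are descriptions with no test.

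**Figure D2:**
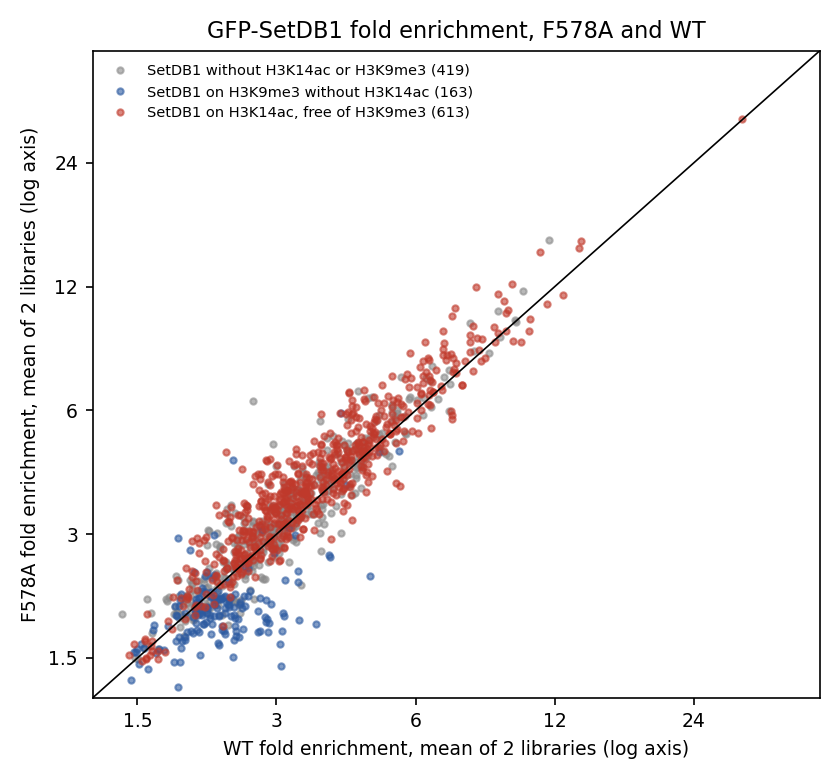
Mean GFP-SetDB1 fold enrichment over input of 2 F578A libraries (vertical log axis) against that of 2 WT libraries (horizontal log axis), with a line of equal values. Each point is a region that had a peak in all 4 libraries. The 53 such regions with both marks are not drawn. The 613 regions on H3K14ac, free of H3K9me3 follow the line over their range, and the 163 regions on H3K9me3 lie mostly below it.

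The regions without a peak in F578A were weak in WT. The 19 with no F578A peak had a median WT fold of 1.97 and a highest one of 2.42, and 6 of them lay at a gene end. The 90 with a peak in 1 F578A library had a median WT fold of 2.30 and 75.6% at a gene end, and the 613 had 3.47 and 96.9%. When the 722 were ranked by WT fold and divided into 3 classes of nearly equal size, F578A replicate 2 had a peak at 68.0%, 94.2% and 100% of the lowest, middle and highest class, and the share at a gene end was 79.3%, 98.3% and 100%. The region of Su(var)3-9, an H3K9 methyltransferase gene that overlaps eIF2gamma, at chr3R:15263324-15263660, gave 3.30 and 2.51 in WT and 5.62 and 3.52 in F578A. HP4, which encodes a protein of heterochromatin (chr3L:7976083-7976615), gave 4.11 and 2.80 against 4.56 and 3.12. At arx, a gene of the piRNA pathway (chr3L:18901450-18901741), the values were 4.26 and 2.35 against 4.22 and 2.18. HDAC1, a histone deacetylase gene (chr3L:4626072-4626955), gave 3.53 and 2.38 against 3.12 and 3.28. At chm (chr2L:7412132-7412517) WT gave 3.57 and 2.80, F578A replicate 1 gave 4.04 and F578A replicate 2 had no peak. Each of these regions also lay at an end of another gene and cannot be assigned to the named gene alone. These were Set at Su(var)3-9, CG8209 at HP4, CG6843 at arx, Src64B and a lncRNA gene at HDAC1, and CG15818 at chm.

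In the knockdown embryos GFP-SetDB1 was called at few of these regions, already in the control. The w knockdown libraries had a peak at 33 (4.57%) and 47 (6.51%) of 722, a mean of 5.54% ± 1.37 (SD, n = 2), and the Gcn5 knockdown libraries at 2 (0.277%) and 5 (0.693%), a mean of 0.485% ± 0.294. Both w libraries had a peak at 24 regions (3.32%, beside 12% of all SetDB1 regions) and both Gcn5 libraries at none (beside 0.909%). The difference of -5.06 percentage points gave p = 0.33 in the exact two-sided permutation test over libraries, the smallest that 2 against 2 allows. With the same number of peaks taken from each library, 115, the difference was 0, with 0.485% in both knockdowns. The lower depth of the Gcn5 libraries moves with this difference, and its part was not tested.

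On H3K9me3 without H3K14ac the w knockdown had peaks at 30.6% and 40.9%, and the Gcn5 knockdown at 1.28% and 1.92%. In the w knockdown the 722 regions minus the regions on H3K9me3 thus gave -26.0 and -34.4 points, the opposite sign to F578A. With neither mark the w knockdown had peaks at 11.3% and 14.4% and the Gcn5 knockdown at 1.46% and 1.73%. The Gcn5 minus w difference was -34.1 points on H3K9me3 and -11.2 points with neither mark. The w share bounds each difference, and it was lowest at the 722 regions, so the sizes of the 3 differences cannot be compared as responses.

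**Figure D3:**
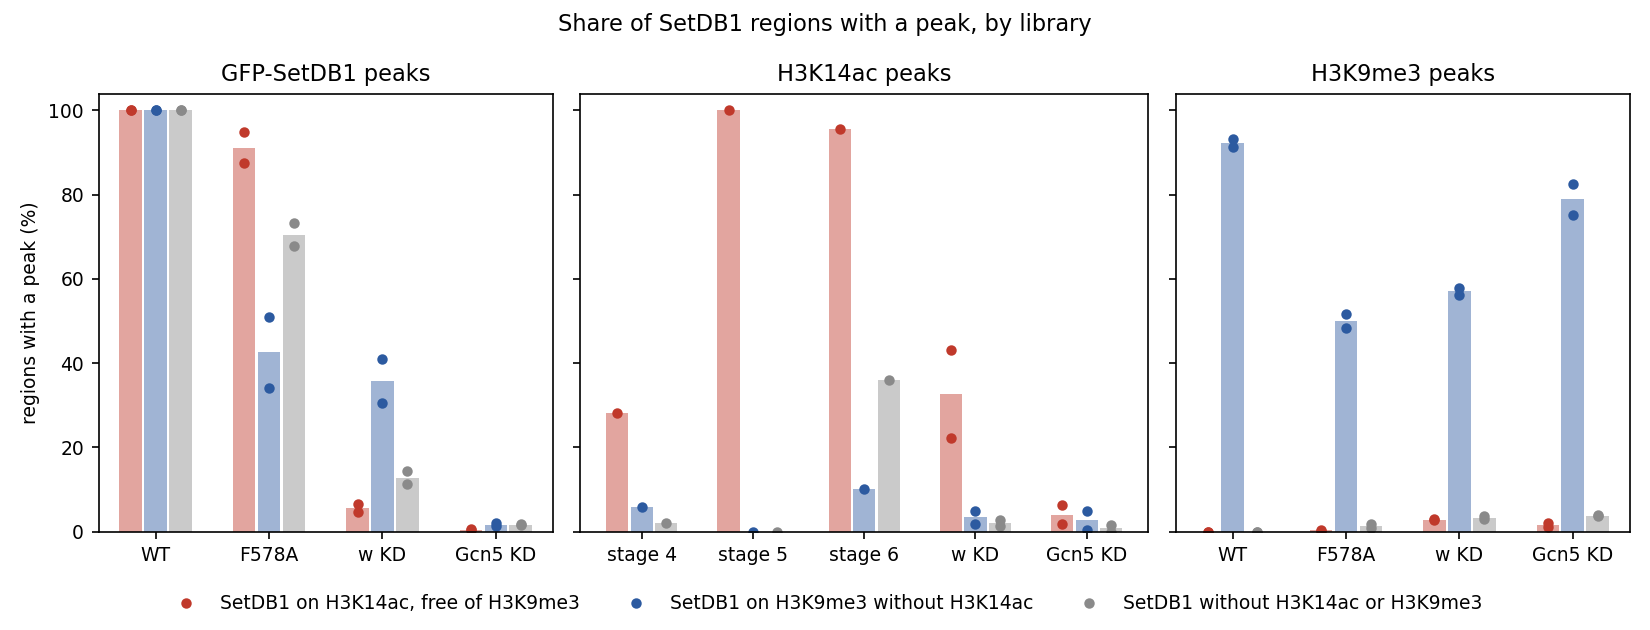
Share of regions with a peak (%, vertical axis) in each group of libraries, for GFP-SetDB1, H3K14ac and H3K9me3; KD is knockdown, bars are means, points are single libraries and colours are kinds of region. The choice of regions sets the shares of GFP-SetDB1 in WT, of H3K14ac at stage 5 and of H3K9me3 in WT. At SetDB1 on H3K14ac, free of H3K9me3 (red), GFP-SetDB1 stands at 94.9% and 87.4% in F578A and at 4.57% and 6.51% in the w knockdown.

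The regions that did have GFP-SetDB1 in the w knockdown were among the weakest of WT. The 24 with a peak in both w libraries had a median WT fold of 1.93 and a highest one of 2.61, against a median of 3.25 for the other 698, and 10 of the 24 lay at a gene end. Of these 24, 9 lay in the histone gene cluster, and 18 had a peak in both F578A libraries. Of the 12 regions with the highest WT fold, osa and Pxt alone had a w peak, in 1 library. Among regions with a peak in both w libraries and outside the histone genes, the highest mean w folds were within CG17684 (chr2R:2088560-2088963), with 2.75 and 2.23, and within Ptp10D, a receptor tyrosine phosphatase gene (chrX:11647310-11647560), with 2.48 and 2.07. Ptp10D also had a peak in Gcn5 knockdown replicate 1, at 2.73, and the gene body of CG34376 (chr3R:22450899-22451341) had one in replicate 2, at 2.31. The region in l(2)gl, a cell polarity gene (chr2L:18200-18972), gave 2.12 and 1.93 in the w knockdown and had no peak in the Gcn5 knockdown. The 4 other regions named by their w folds, a second one within CG17684, one within CG43291 and those nearest to Or82a and CG41378, had w folds between 1.90 and 2.27. Near mir-4981 (chr2R:8015868-8017560) Gcn5 replicate 2 gave 2.58, after 2.08 and 1.80 in the w knockdown.

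The histone gene cluster of chromosome arm 2L, where the genes of the core and linker histones stand in repeated units, held 15 of the regions between 21417860 and 21539313. Their WT folds were low, from 1.44 to 1.75, and all 15 had a peak in both F578A libraries. The w knockdown had GFP-SetDB1 at 9 and 11 of the 15, and the Gcn5 knockdown at 1 and 2. H3K14ac was called at 15 and 14 in the w knockdown and at 5 and 15 in the Gcn5 knockdown, and H3K9me3 at 7 and 11 and at 3 and 6. None had H3K14ac at stage 4 and all 15 had it at stage 6. The sources used here do not say how reads from these near-identical copies were placed, and the values of single copies are uncertain. Without these 15 regions the Gcn5 minus w difference of the GFP-SetDB1 share was -3.96 points, and the F578A share was 90.9%.

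H3K14ac was called at fewer of these regions in the Gcn5 knockdown. The w knockdown libraries had an H3K14ac peak at 312 (43.2%) and 160 (22.2%) of the 722 and the Gcn5 libraries at 13 (1.80%) and 45 (6.23%). The mean was 32.7% ± 14.9 against 4.02% ± 3.13 (SD, n = 2), and the groups did not overlap. Both w libraries had a peak at 141 (19.5%), beside 7.18% of all SetDB1 regions and 6.25% of all stage 5 H3K14ac peaks. Both Gcn5 libraries had one at 8 (1.11%), beside 0.636% and 0.281%. The difference of -28.7 percentage points gave p = 0.33 by exact permutation, again the smallest possible. At regions on H3K9me3 without H3K14ac the difference was -0.721 and at those with neither mark -1.26, but both kinds were chosen for having no H3K14ac at stage 5 and had w shares of 3.37% and 1.99%, which leave little to lose. With equal numbers of peaks in all libraries, 86, the difference at the 722 was -2.01 points; depth was lower in the Gcn5 libraries and its part was not tested.

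At stage 4, H3K14ac was called at 203 of the regions (28.1%, 95% Wilson interval 24.96 to 31.5), beside 12.4% of all SetDB1 regions, and at stage 6 at 690 (95.6%, 93.8 to 96.8), beside 48.3%. Most SetDB1 regions lack H3K14ac at stage 5, which the 722 have by choice. Of all stage 5 H3K14ac peaks, 23.5% overlapped a stage 4 peak and 84.3% a stage 6 peak. The intervals cover counting error over regions only, and each stage is 1 library, so there was no test. A peak at all 3 stages was found at 202 regions, with a median WT fold of 3.50, and 488 had one at stages 5 and 6, with 3.16. The 31 regions with H3K14ac at stage 5 alone had a median WT fold of 2.06, 29.0% lay at a gene end and 45.2% had GFP-SetDB1 in both F578A libraries. The w knockdown had H3K14ac at 62.9% and 34.2% of the 202 and at none of the 31.

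Few H3K14ac peaks overlapped a SetDB1 region. Of 9603 stage 5 H3K14ac peaks, 827 (8.61%) overlapped a SetDB1 region of any kind and 723 (7.53%) one of the 722 regions. Those peaks had a median H3K14ac fold of 2.18 and a median length of 1100 bases, against 1.86 and 757 bases for peaks without a SetDB1 region. When the H3K14ac peaks were divided into 4 classes of nearly equal size by their fold, from low to high, 2.37%, 2.25%, 5.04% and 20.4% overlapped one of the regions. Median peak length also rose over these classes, at 605, 802, 905 and 967 bases, and its part was not tested. Within the 722, however, the H3K14ac fold followed the GFP-SetDB1 fold weakly, with a Spearman rho of 0.17. The w knockdown had H3K14ac at 53.0% and 30.2% of the peaks with one of the regions and at 15.1% and 5.30% of those without SetDB1.

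**Figure D4:**
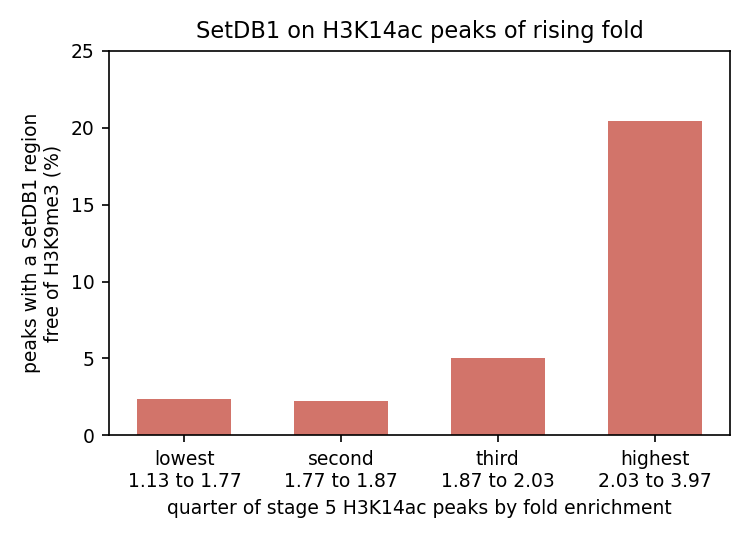
Share of w1118 stage 5 H3K14ac peaks that overlap a SetDB1 region free of H3K9me3 (%, vertical axis), by 4 classes of the peaks' H3K14ac fold enrichment (horizontal axis, with the range of fold). The share is 2.37% in the lowest class and 20.4% in the highest, where the median peak length is 605 and 967 bases. The bars count peaks of 1 library and have no error bar.

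H3K9me3 was called at few of these regions in each genotype measured. F578A had a peak at 1 (0.139%) and 3 (0.416%) of the regions, of which 1 in both libraries, beside 12.4% of all SetDB1 regions. The w knockdown had one at 19 (2.63%) and 21 (2.91%) and the Gcn5 knockdown at 8 (1.11%) and 15 (2.08%), with 10 and 5 in both libraries, beside 17.0% and 23.9%. Of the 12 regions with the highest WT fold, some had an H3K9me3 peak in 1 w knockdown library. They were those of Sumo (replicate 2, 2.51), Zdhhc8 (replicate 1, 2.34) and Pop4 (replicate 1, 2.89), and the rest of the 12 had none. The Gcn5 minus w difference was -1.18 points (exact permutation p = 0.33), while at regions with neither mark it was 0.465 and at regions on H3K9me3 21.8 points. The last kind was chosen for having H3K9me3 and the 722 for lacking it, so nothing is read from the contrast between them. In w1118, H3K9me3 was called at 5, 2 and 4 of the 722 at stages 4, 5 and 6, beside 16.2%, 15.8% and 23.1% of all SetDB1 regions. H3K9me2 was called at 16, 8 and 17, beside 25.5%, 22.5% and 28.0%.

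A single region was high with all antibodies of replicate 2. At chr3R:7086384-7086928, at the ends of alphaTub84B, the gene of an alpha tubulin, and Tailor, a uridylyltransferase gene, the Gcn5 knockdown replicate 2 gave 8.20 for GFP-SetDB1, 12.8 for H3K14ac and 8.31 for H3K9me3. In replicate 2 of the w knockdown the values were 2.78, 3.91 and 7.91. Replicate 1 of both knockdowns had no peak there with any of the 3 antibodies. WT gave 2.49 and 2.25 for GFP-SetDB1, F578A replicate 1 gave 2.24 and replicate 2 had no peak. These 3 lists of a replicate share an input, and the part of the input in the values was not tested.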

How the data were processed

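The 29 deposited peak lists of the ChIP-seq samples were used; 12 tables of RNA counts of repeats were not used here, and 14 input samples have no file of their own. Bowtie2 2.3.5.1, Trim Galore 0.6.0, deepTools and MACS2 2.2.6 are named per the submitters' processing notes. The knockdown, WT and F578A lists were called per library against input in broad mode with a cutoff of 0.1, per the file headers. The w1118 lists carry no settings, and their depth is not given in the sources used here. Each list gives the fold enrichment (a ratio to input), −log10 p and q and a pileup signal that the authors deposited. A share of regions with a peak rests on how many peaks a library yielded, which can move with its depth.

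Intersections, overlaps (1 base or more) and distances were computed in Python 3.11.15 with numpy 2.4.6, pandas 2.3.3 and scipy 1.17.1, and checked on simulated intervals. Gene positions came from the RefSeq table of Release 6 (dm6), which matched the extent of the peaks on each arm. It has no strand, so annotated ends stand in place of the planned gene starts. Shares per library were compared by exact permutation. Regions were named by rule: the 12 highest WT folds, the 8 highest in F578A and in both w knockdown libraries, regions with a Gcn5 knockdown peak (none had both, so regions with 1 library were named after seeing the data), and regions at genes of 4 lists. The regions and lists were chosen with earlier results of these data known.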

Additional observations from a re-analysis of the deposited data

How the results depend on the processing

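Of the recomputed values 236 kept their direction or stayed within the spread, 34 moved and 4 changed sign; the cause was not tested. The number of regions was 429 with 50% overlap, 181 with a −log10 q of at least 5, 145 with H3K14ac from both w knockdown libraries and 218 with H3K14ac from stage 4, and 730 to 1123 without 1 WT library. Without 1 WT library the F578A share was 78.1% to 90.8%, the Gcn5 knockdown share 0.356% to 0.903%, the share at a gene end 90.2% to 92.3% and the F578A H3K9me3 share 0.323% to 0.479%. With 50% overlap the w knockdown share was 2.91% and H3K14ac stood at 24.01% at stage 4 and 93.2% at stage 6. With the −log10 q limit of 5 the w share was 0.552%, the F578A H3K9me3 share 0.552%, stage 4 2.21%, stage 6 93.4%, gene ends 96.7% and the H3K9me3 difference 0, and the H3K9me3 contrast with regions on H3K9me3 turned to 10.3 points. With H3K14ac from the w knockdown the shares were 96.9% in F578A, 10.7% in w and 1.38% in Gcn5, F578A H3K9me3 was 0, stages 4 and 6 were 41.4% and 97.2%, gene ends 98.6%, and the GFP-SetDB1 contrast with regions of neither mark turned to -1.22. With H3K14ac from stage 4 the shares were 3.67% in w, 0.917% in Gcn5 and 97.2% at stage 6, F578A H3K9me3 and the H3K9me3 difference were 0, and the H3K9me3 contrast with neither mark turned to 0.398. With equal numbers of peaks the w share was 0.485% and the GFP-SetDB1 difference 0. Regions taken from F578A, an alternative added after seeing the data, gave 0.889% in Gcn5 and 93.4% at stage 6. Contrasts between kinds of region in the Gcn5 minus w change (722 regions minus others) are bounded by the choice of regions and their w shares. Against regions on H3K9me3 they were 29.1, -27.9 and -23.0 points for GFP-SetDB1, H3K14ac and H3K9me3, and 0.641, -2.25 and -9.09 with equal numbers of peaks; against neither mark they were 6.18, -27.4 and -1.64, and -0.465, -1.88 and -1.20. The replicate block, which pairs same-numbered knockdown libraries, left the GFP-SetDB1 difference at -5.06 and the H3K14ac difference at -28.7 points, with an exact sign-flip p of 0.5, the smallest for 2 pairs. The labels do not say what the numbers stand for, and with 2 pairs per antibody no pairing could be shown. The 2 or 1 libraries per group and the shallow Gcn5 libraries limit what these comparisons can detect.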

Other observations

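The same rule applied from the F578A side, with regions under both F578A GFP-SetDB1 libraries, on stage 5 H3K14ac and free of F578A H3K9me3, gave 731 of 1529 regions. Of these, 97.3% had a GFP-SetDB1 peak in WT replicate 1 and 88.6% in WT replicate 2. The shares were close in size to those of the 722 regions in F578A, 94.9% and 87.4%. Of the 731, 587 (80.3%) overlapped one of the 722, and 81.3% of the 722 were overlapped. F578A regions on H3K9me3 without H3K14ac numbered 142 of 1529, against 624 of 2200 from the WT side. The F578A H3K9me3 libraries were shallower, with 1.46 and 1.43 M fragments against 2.63 and 2.47 M in WT. The part of depth in these numbers was not tested. The set from the F578A side was chosen after the data were seen and received no test.

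Among genes that are not protein-coding, 37 of 503 antisense RNA genes (7.36%) and 27 of 1996 lncRNA genes (1.35%) had one of the 722 regions at an end, and 2 of 312 tRNA genes did. The highest shares were in kinds with few genes, 11 of 24 annotated as segment (45.8%) and 9 of 54 annotated as ncRNA (16.7%). The antisense genes lie at or beside other genes, and their regions cannot be told apart from those of the neighbour.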
